A study of Mus musculus with 4 samples.

Results

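The genes described here are 10 markers of the epithelium that covers the front of the eye, out of 22863 genes in the RNA-seq table. They are the keratins Krt4, Krt5, Krt12, Krt13, Krt14, Krt15 and Krt19, the crystallin-like enzyme gene Aldh3a1, and Perp and Sfn, which act in stratified epithelia. Each was found by its symbol, which occurred once in the table. The list was selected on knowledge of earlier results in the same comparison, where surface markers had been lower in objective day. The objective day values of the 10 genes are therefore given as a description, and no support is drawn from their direction.

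All 4 samples came from C3H/f+/+ mice, a melatonin-proficient inbred strain that lacks the photoreceptor-killing Pde6b allele of common C3H mice. Each sample pooled 4 eyes of a female and a male mouse, taken 6 hours after scheduled lights-on. The 2 subjective day samples came from mice dark-adapted over 18 hours by the study's methods (another passage of the study differs on this length), and the 2 objective day samples from mice that had seen morning light followed by 1 hour of darkness. Posterior sclera, choroid, RPE and retina were kept, whereas the front of the eye with the lens was discarded, so the surface epithelium was not among the tissues meant to be sampled. The ages of these mice were not given in the sources used here. Among tissue markers, Gnat1, the rod transducin gene, ran from 584720 to 761670, Rpe65, the retinoid isomerase gene of the RPE, from 5121 to 8708, while Best1, a channel gene of the RPE, stayed between 0 and 9.70. Of 12 such markers tested, Rpe65 alone was called between the conditions (lower in objective day). Over all genes tested, 7.45% were called lower and 1.06% higher, so this count was near the overall share. None of the markers was called with the GC trend removed. Without the first subjective day sample 2 of them, Plvap and Col1a1, were called higher. Sample totals lay between 33278417 and 35236783, after an adjustment by the authors that makes them nearly equal, so they do not give the depth.

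Keratins are the intermediate filament proteins of epithelial cells and assemble as pairs of an acidic type I and a basic type II chain. Krt5 (type II) and Krt14 (type I) form the filaments of basal cells in stratified epithelia, and Krt15 is a further basal type I keratin. Krt4 and Krt13 pair in the upper layers of moist, non-keratinised epithelia such as conjunctiva, and Krt19 is found in conjunctiva and limbus. Krt12 is the type I keratin of corneal epithelium, where Aldh3a1 encodes an abundant soluble enzyme that is thought to protect against ultraviolet light.

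The surface epithelium transcripts were present in every sample, but Krt12 was close to nothing. Krt12 stood at 3.99 and 7.67 in subjective day, against 1.78 and 12.5 in objective day, and the conditions overlapped. Per kilobase of transcript, its level was between 0.00151 and 0.00909 of that of Krt5. The other 9 genes had values of at least 119.6 in all samples. The values of Krt12 went against the corneal part of the label, and the leading genes of the set were Krt15, Krt5 and Krt14. Krt12 (GRCm38, minus strand of chromosome 11, 99415666 to 99422259) shares 1007 of its 1852 exonic bases with the antisense gene A830036E02Rik, whose own values ran from 2.00 to 8.69. Strand use in the counting was not given in the sources used here, so reads of this pair cannot be told apart over 54.4% of the exonic bases of Krt12.

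Krt15 stood highest on the per-kilobase scale, with levels of 2967 and 3136 in subjective day, against 793 and 1551 in objective day. It was followed by Krt5 (1431 and 1502, then 389 and 745) and Krt14 (952 and 929, then 323 and 465). These 3 basal keratins kept that order in all 4 samples, although the objective day ranges of Krt5 and Krt14 overlapped. Perp, Krt13 and Krt4 came next, with subjective day levels from 468 to 660 per kilobase, and their order changed between samples. Krt19 and Aldh3a1, between 327 and 407 in subjective day, also overlapped each other in both conditions. Sfn was lower than these in every sample, at 185 and 191 per kilobase in subjective day, and Krt12 was the lowest throughout. Summed, the 10 genes accounted for 0.0415% and 0.0426% of the total in subjective day, against 0.0130% and 0.0222% in objective day. In bulk tissue, fewer epithelial cells and less RNA per cell cannot be told apart.

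**Figure D1:**
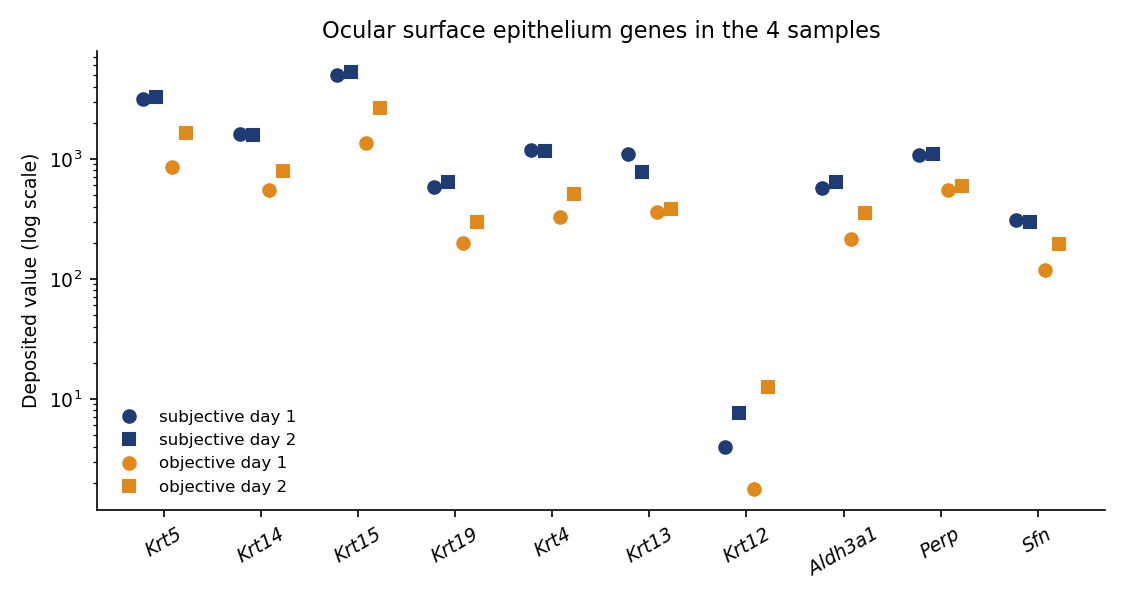
Deposited value of each of the 10 genes (log axis) in the 2 subjective day and 2 objective day samples; each point is 1 sample. For 9 genes both objective day points lie below both subjective day points, whereas Krt12 lies between 1.78 and 12.5 with overlapping conditions.

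Promoter windows are shown for 3 keratins that differed in the data, the basal Krt5, the conjunctival Krt13 and the nearly absent Krt12. The windows run from 250 bases before to 50 bases after the RefSeq start (GRCm38.p6), all on the minus strand, at chr15:101712856-101713155 for Krt5, chr11:100121517-100121816 for Krt13 and chr11:99422210-99422509 for Krt12. Capitals mark matches to ATAAANG, which resembles the element bound by TBP, and to the p63 half-site, each searched on both strands. The motifs were chosen once these windows had been seen.
Krt5: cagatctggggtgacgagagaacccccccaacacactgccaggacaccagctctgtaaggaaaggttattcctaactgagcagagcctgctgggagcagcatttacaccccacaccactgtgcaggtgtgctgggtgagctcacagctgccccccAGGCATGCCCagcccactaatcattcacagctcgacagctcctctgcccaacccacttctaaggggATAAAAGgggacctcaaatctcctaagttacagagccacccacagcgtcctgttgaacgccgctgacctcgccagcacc
Krt13: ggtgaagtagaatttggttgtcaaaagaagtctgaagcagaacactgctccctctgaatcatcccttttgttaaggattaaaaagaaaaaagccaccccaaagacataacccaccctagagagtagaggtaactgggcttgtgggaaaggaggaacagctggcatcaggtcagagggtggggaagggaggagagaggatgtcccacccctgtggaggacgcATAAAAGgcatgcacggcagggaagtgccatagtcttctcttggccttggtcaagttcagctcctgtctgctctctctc
Krt12: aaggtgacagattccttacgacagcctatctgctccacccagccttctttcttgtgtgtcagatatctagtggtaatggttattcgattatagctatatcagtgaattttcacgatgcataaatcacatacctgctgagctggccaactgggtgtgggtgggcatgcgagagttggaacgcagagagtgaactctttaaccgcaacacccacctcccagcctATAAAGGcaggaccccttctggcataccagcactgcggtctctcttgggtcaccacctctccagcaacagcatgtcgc

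In all 3 windows ATAAANG occurred once, beginning 29 bases before the start in Krt5 and Krt13 and 28 bases before it in Krt12. It was found in 12.9% of 32544 promoter windows of the same length. The p63 half-site, which is recognised by p63, the regulator of stratified epithelia, matched once in Krt5 and in neither of the other windows shown, against 8.36% of all windows. The AP-1 motif TGANTCA matched once in Krt13, against 7.79%, and CACCC, bound by Krüppel-like factors, matched 4 times in each of the 3, against 57.7% of windows with at least 1 match. A match is a description of letters and not of binding. Windows were found for 5 of the 10 genes. Those not shown, for Krt14, Sfn and a second RefSeq start of Krt13, held no match to ATAAANG or the p63 half-site, and the second Krt13 window held 2 AP-1 matches. The Krt14 window and the second Krt13 window lie 1518 and 989 bases from the GENCODE start.

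Objective day samples were compared with subjective day samples with limma's test on log2(value + 1), for the 17784 genes that reached 10 in 2 or more samples. Krt12 did not pass this filter. The other 9 genes were all lower in objective day, at 34.9% (Krt4) to 52.4% (Perp) of the subjective day mean on the log2 scale. The median log2 fold change of the 9 was -1.31, compared with 0.015 over all genes tested. All 9 had an adjusted p under 0.05 in the lower direction, as did 7.45% of the genes tested, while 1.06% passed in the higher direction. This imbalance over all genes depended on the processing. With the GC trend removed, 111 genes were called lower and 100 higher, and with the sample number also fitted as a block, 712 and 914. Both objective day samples lay below both subjective day samples for all 9, as for 28.2% of the genes tested. Since the genes were listed with this comparison known, nothing is read from these counts. For 1 gene, the smallest two-sided p that an exact permutation of 2 against 2 samples allows is 0.333.

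Krt5 is on chromosome 15 of GRCm38 (minus strand, 101707070 to 101712898), and Krt14 (100203162 to 100207548) and Krt15 (100131758 to 100135928) are on the minus strand of chromosome 11. Krt15 stood at 5044 and 5332 in subjective day, against 1348 and 2637 in objective day. The log2 fold change was -1.46 with a standard error of 0.26, and the lowest subjective day value was 1.91 times the highest objective day value. Krt5 was close to this pattern, at 3144 and 3299.5 and then 854 and 1638, with a log2 fold change of -1.44 (standard error 0.25). Krt14 had 1617 and 1578, then 548 and 789 (log2 fold change -1.28, standard error 0.15). In each of the 3 basal keratins, the first objective day sample was the lowest of all samples. Of the 50-base windows of their transcripts, the length of the reads, 8.52% in Krt5 also occur in another gene (mainly Krt6a), 14.4% in Krt14 (mainly Krt16) and 0.666% in Krt15, so the counts of Krt5 and Krt14 are uncertain to that extent. Krt16 itself had values between 0 and 5.48.

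Krt4 (chromosome 15, minus strand, 101918535 to 101924735) stood at 1175 and 1167 in subjective day, against 326 and 510.1 in objective day, a log2 fold change of -1.52 (standard error 0.18). It was the largest of the 9 genes with all 4 samples, while Krt13 was the largest without the second subjective day or the first objective day sample, and Krt15 without the second objective day sample. Krt13 (chromosome 11, minus strand, 100117327 to 100121566) had 1092 and 774 in subjective day, against 360.1 and 382.5 in objective day, with a log2 fold change of -1.31 (standard error 0.15). The 2 subjective day samples of Krt13 differed by more than its objective day samples did. Krt19 (chromosome 11, minus strand, 100140810 to 100148665) had 581 and 641, then 199.97 and 296 (log2 fold change -1.32, standard error 0.18). None of these 3 transcripts shares a 50-base window with another gene.

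Aldh3a1 (chromosome 11, plus strand, 61207537 to 61218421) stood at 566 and 638 in subjective day, against 214 and 353 in objective day. The log2 fold change was -1.12 with a standard error of 0.21, and its lowest subjective day value was 1.60 times its highest objective day value. Aldh3a1 was thus present at 0.229 to 0.319 of the per-kilobase level of Krt5, in samples that nearly lacked Krt12. Perp (chromosome 10, plus strand, 18845020 to 18857073) encodes a membrane protein of desmosomal junctions, and had 1075 and 1105, then 551 and 591. With all 4 samples it had the smallest fold change of the 9, at -0.93, and the smallest standard error, at 0.076, while without the first objective day sample the smallest change was that of Sfn. Sfn (chromosome 4, minus strand, 133600556 to 133602168) encodes 14-3-3 sigma, a regulator of keratinocyte differentiation, and had 309 and 298, then 119.6 and 194. The log2 fold change of Sfn was -0.99 (standard error 0.21), and 15.0% of its 50-base windows occur in another gene, chiefly Gm7850, so its count is uncertain.

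The transcripts of the 9 genes had a GC content from 48.0% (Perp) to 59.7% (Sfn). In that GC range, the 9552 genes tested had a median log2 fold change of 0.091, and 0.879% of them were called lower. With the GC trend of each sample removed, the 9 genes had a median of -1.40, and all but Sfn (adjusted p = 0.0593 from limma's test) kept an adjusted p under 0.05. Without the first objective day sample, the median was -0.98 and Sfn was again outside the threshold (adjusted p = 0.0618, limma). With a variance prior common to all genes, none of the 9 passed (adjusted p 0.126 to 0.184, limma), although all 9 had an unadjusted p under 0.05.

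The 2 samples of a condition were then compared with each other. In objective day, the second sample exceeded the first for all 9 genes, by a factor from 1.06 (Krt13) to 1.96 (Krt15) with a median of 1.57. For 7 of the 9 the factor was over 1.16, the 95th percentile of the 13216 tested genes with a mean value of at least 100. Krt13 and Perp (1.07) were within it. In subjective day the same ratio ran from 0.709 (Krt13) to 1.13 (Aldh3a1) with a median of 1.03. None of the 9 exceeded the 95th percentile of 1.21, but Krt13 lay below the 5th percentile of 0.816. The 2 objective day samples thus differed from each other in most of these genes by more than most genes with a mean value of at least 100, and the 2 subjective day samples did not. With 2 samples the difference between the conditions in this respect was not tested.

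**Figure D2:**
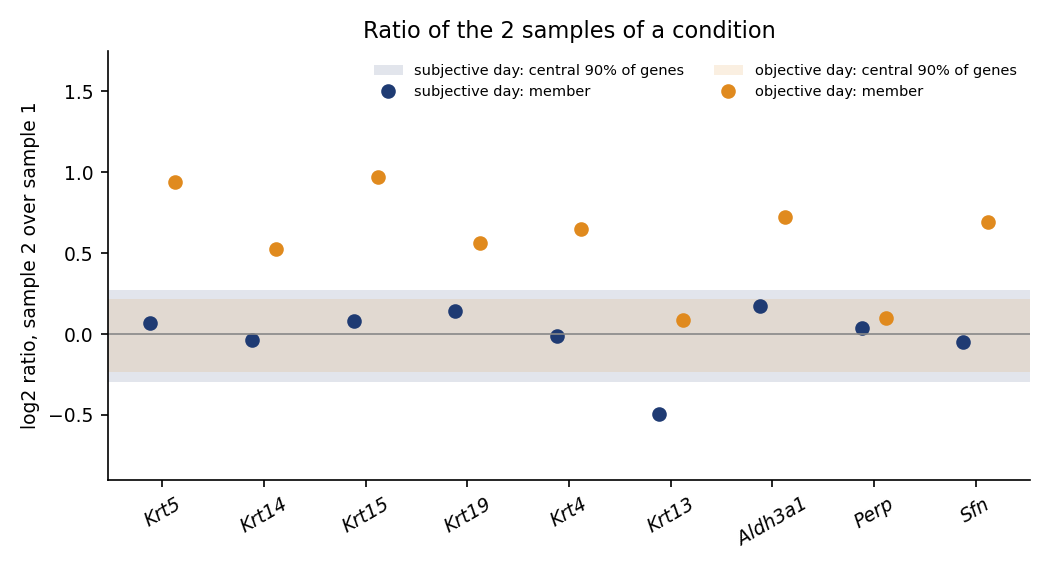
Log2 ratio of the second to the first sample within each condition, coloured by condition, for the 9 genes tested; shaded bands span the 5th to the 95th percentile of the 13216 tested genes with a mean value of at least 100. In objective day 7 of the 9 points lie above the band, and in subjective day Krt13 lies below it.

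The make-up of the keratins was taken as the share of each in their sum. Per kilobase, Krt15 made up 42.8% and 44.8% of the 7 keratins in subjective day, against 39.6% and 45.3% in objective day. Its shares were lower in both samples numbered 1 than in both numbered 2, and the shares of Krt5, Krt14, Krt13 and Krt12 also separated by sample number and not by condition. Krt5 took 20.6% and 19.4% in the samples numbered 1, and 21.5% and 21.8% in those numbered 2. Krt14 was higher in the samples numbered 1, at 13.7% and 16.1%, than in those numbered 2, at 13.3% and 13.6%. Krt13 was likewise higher there, at 9.53% and 10.9%, against 6.69% and 6.75%. The ratio of Krt13 to Krt5 was 0.461 and 0.312 in subjective day, against 0.560 and 0.310 in objective day, and so followed the same split. Krt12 had 0.0311% and 0.0479% in the samples numbered 1, and 0.0592% and 0.198% in those numbered 2. Krt4 (6.98% to 7.95%) and Krt19 (5.32% to 6.34%) did not separate by sample number. The ranges of the 2 conditions overlapped for every keratin except Krt4, whose objective day shares (7.62% and 6.98%) were both below its subjective day shares (7.95% and 7.82%).

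**Figure D3:**
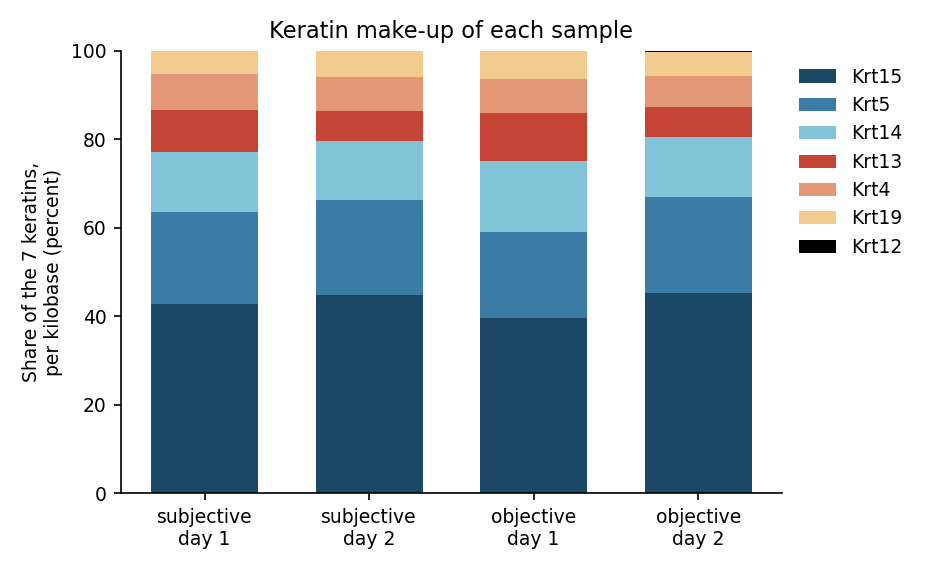
Share of each keratin, in percent, of the summed per-kilobase level of the 7 keratins, 1 stacked bar per sample. Krt15 takes 39.6% to 45.3% of each bar, Krt13 and Krt14 are larger and Krt15 and Krt5 smaller in the samples numbered 1, and Krt12 is barely visible.

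Genes with related functions were then examined in 5 lists of epithelial genes, 88 genes in all, of which 84 were in the table and 76 were tested. Of these, 24 fell in objective day and none rose at limma's adjusted p under 0.05, compared with 7.45% and 1.06% of all genes tested. In the higher direction, 1 had an unadjusted p under 0.05. The shares over all genes hold without GC correction, and with the GC trend removed 111 genes were called lower and 100 higher. The median log2 fold change of the 76 was -0.51. Together with 7 lists of other cell types, the count of called genes was 26. It was 16 without the first objective day sample and 10 with the GC trend removed, while the count over all genes (1514) was 736 without the first and 664 without the second objective day sample, 2557 without the first subjective day sample and 211 with the GC trend removed. These lists too were written with earlier results known.

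Among 9 tested keratins outside the 10 genes, 4 fell and 5 did not pass, while 7.45% of all genes tested were called lower. Krt7, a keratin of simple and conjunctival epithelium, stood at 518 and 439 in subjective day, against 136 and 189 in objective day (log2 fold change -1.57, adjusted p = 0.00558, limma). Krt6a and Krt6b, near-identical keratins of stratified epithelia, had log2 fold changes of -1.36 and -1.43, at adjusted p = 0.0284 and 0.0114 (limma), and Krt78 one of -1.31 (adjusted p = 0.0443, limma). The keratins of simple epithelium, Krt8 and Krt18, had log2 fold changes of -0.10 and 0.031 that did not pass; they were chosen for mention after their values were seen. Krt8 had values from 855 to 1047.5 and Krt18 from 1693 to 2343, and both overlapped between the conditions. Without the first objective day sample 3 keratins of this list were called, and 2 with the GC trend removed.

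Of 23 tested genes of epithelial junctions, 8 fell, compared with 7.45% called lower over all genes tested. The desmosomal cadherin Dsc3 had the largest fall, from 139 and 175 to 18.6 and 48.1 (log2 fold change -2.34, standard error 0.40, adjusted p = 0.0152, limma). Dsc2, a related cadherin, fell by 1.21 on the log2 scale (adjusted p = 0.00558, limma). The plaque proteins Dsp and Evpl fell to 61.0% and 61.5% of the subjective day level (adjusted p 0.00558 and 0.00813, limma). Jup, another plaque protein gene, which many cell types express, stood at 1846 and 1744 in subjective day, against 1917 and 1912 in objective day, and did not pass; it was picked out after its value was seen. The median log2 fold change of the junction genes was -0.51, and -0.52 without the first objective day sample. With the GC trend removed it was -0.57, and 4 genes were called.

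The barrier and secreted genes of the surface included 9 that fell, out of 16 tested, compared with 7.45% called lower over all genes tested. Muc4, a membrane mucin of the ocular surface, stood at 1295 and 1442 in subjective day, against 367 and 570.3 in objective day (log2 fold change -1.58, adjusted p = 0.00558, limma). Upk1b, a membrane protein of urothelium and ocular surface, fell to 30.4% (adjusted p = 0.0109, limma), and the mucins Muc1 and Muc20 fell to 43.4% and 49.1% (adjusted p 0.0143 and 0.0336, limma). For all of these the first objective day sample was the lowest of the samples. The median log2 fold change of this list was -0.86. It was -0.63 without the first objective day sample and -0.84 without the first subjective day sample. With the GC trend removed it was -0.99, and 3 genes were called.

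Of 16 epithelial transcription and splicing factors tested, Ehf and Elf3, ETS factors of epithelial cells, passed the threshold. Over all genes tested, 7.45% were called lower. Ehf stood at 318 and 347 in subjective day, against 98.9 and 156 in objective day (log2 fold change -1.41, adjusted p = 0.0096, limma). Elf3 had 167 and 147, then 44.1 and 81.6 (log2 fold change -1.37, adjusted p = 0.0284, limma). Trp63, which encodes p63 and was picked out after its value was seen, had 76.9 and 78.6, then 47.2 and 52.6, and did not pass (log2 fold change -0.63, standard error 0.20). With the GC trend removed 1 of the 16, Ehf, was called.

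Of 12 tested genes for basal adhesion, Col17a1, a hemidesmosomal collagen, was the single gene called, near the 7.45% called lower over all genes tested. It stood at 317 and 348 in subjective day, against 167 and 235 in objective day (log2 fold change -0.74, adjusted p = 0.0399, limma), and it was not called without the first objective day sample, without the second subjective day sample or with the GC trend removed. The median of this list was 0.028. Its most abundant genes, Dst and Plec, which link filaments to adhesion sites in many tissues, had log2 fold changes of 0.079 and 0.18 and did not pass.

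**Figure D4:**
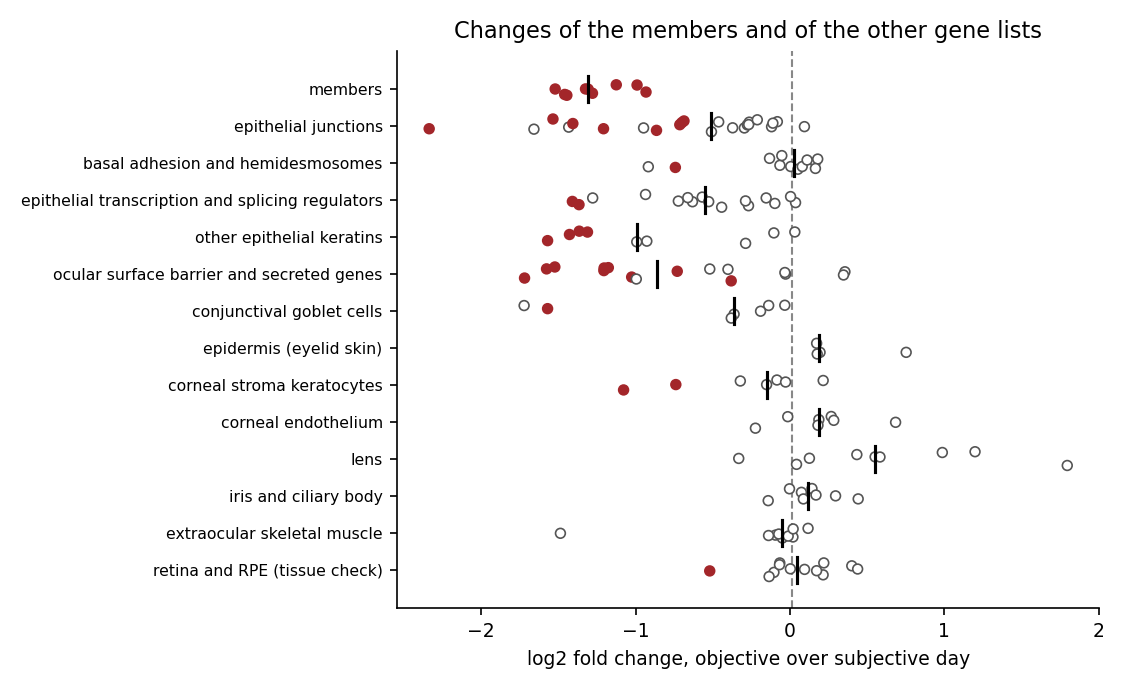
Log2 fold change of objective over subjective day for the genes tested in each list; filled points have an adjusted p under 0.05 (limma), black bars are list medians and the dashed line is the median of all genes tested (0.015). The 9 ocular surface genes lie between -1.52 and -0.93, and the medians of the 7 lists of other cell types lie between -0.36 (goblet cells) and 0.55 (lens), both of which change sign when single samples are left out.

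The goblet cell list (8 genes, 7 in the table, all tested) had a summed value of 859 and 1047 in subjective day, against 352 and 582 in objective day. Krt7, which is also on the keratin list, carried this separation: the other 6 genes summed to 340.5 and 608, then 216 and 393, which overlapped, as did 5 of the 6 singly. The median of the list was -0.36, and ran from -0.87 without the first to 0.072 without the second subjective day sample. Within the list Krt7 alone was called, joined by Muc5ac without the second objective day sample. Muc5ac, the gel-forming mucin of conjunctival goblet cells, had 129 and 312, then 21.8 and 163, so that the conditions overlapped (log2 fold change -1.72, adjusted p = 0.244, limma). Agr2, Muc5b, Spdef and Tff1 had log2 fold changes from -0.36 to -0.034 and overlapped. Fcgbp, a mucus protein, had 109 and 111, then 83.2 and 85.1 (adjusted p = 0.19, limma). The epidermis list (12 genes, 6 in the table, 4 tested) had sums of 855 and 820.5, then 957 and 988. Its most abundant genes, Krt10 and Sbsn, had log2 fold changes of 0.17 and 0.18, and neither passed. The 4 tested genes had log2 fold changes from 0.17 to 0.75. Lor, at the upper end, had 35.9 and 31.1, then 68.3 and 47.6, without overlap (adjusted p = 0.13, limma). It was named after its value was seen. Krtdap and Dmkn of that list were under 10 in every sample. The summed epidermis value was thus not lower in objective day.

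The lens list (11 genes, 10 in the table, 9 tested) split by sample number, with sums of 24162 and 2318 in subjective day, against 21843 and 5063 in objective day. No lens gene was called, and 1 had an unadjusted p under 0.05 in the higher direction (limma). Without the first subjective day sample 6 were called higher. The lens median of 0.55 was 2.23 without the first and -1.16 without the second subjective day sample, and -0.51 without the first and 1.61 without the second objective day sample, so that it gave no stable direction. Crybb2 and Cryba1, lens crystallins, had log2 fold changes of 0.58 and 0.43 with standard errors above 1. The first samples of both conditions held most lens RNA, whereas the surface genes were highest in both subjective day samples.

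Corneal stroma genes (8 genes, 7 tested) summed to 17908 and 13408 in subjective day, against 13526 and 12689 in objective day. Of these, Ogn and Lum, small leucine-rich proteoglycans that sclera also expresses, fell to 47.4% and 59.9% (adjusted p 0.00908 and 0.0477, limma), and neither was called with the GC trend removed. Over all genes tested, 7.45% were called lower. Without the second objective day sample Ogn alone was called, Dcn was also called lower without the second subjective day sample, and Col5a1 was called higher without the first. The median of the list was -0.15, and ran from -0.59 without the second to 0.023 without the first subjective day sample. Kera, the keratocyte proteoglycan gene, had 189 and 102, then 117 and 133, which overlapped; it was picked out after its value was seen. Corneal endothelium (7 tested, median 0.19), iris and ciliary body (8 tested, median 0.11) and extraocular muscle (9 tested, median -0.049) had no called gene with limma. At an unadjusted p under 0.05 stood 1 gene of each, Slc4a11 (log2 fold change 0.68) and Mlana (0.44), both higher, and Myh13, a myosin of extraocular muscle, which was lower. Myh13 had 1387 and 1872, then 1102 and 299 (log2 fold change -1.49, standard error 0.51, adjusted p = 0.122, limma), so that the conditions did not overlap, and it was lowest in the second objective day sample. A fit without the first objective day sample leaves only the value of 299 in objective day, so no call of Myh13 is given from it. These 3 genes were named after their values were seen. With single samples left out, 0 to 2 genes of each of these 3 lists were called. Among the most abundant genes of these 3 lists, Tjp1, Tyrp1, Des, Atp2a1 and Myh4 had log2 fold changes between -0.14 and 0.087. The part of any of these tissues in the values of the surface genes was not tested.

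**Figure D5:**
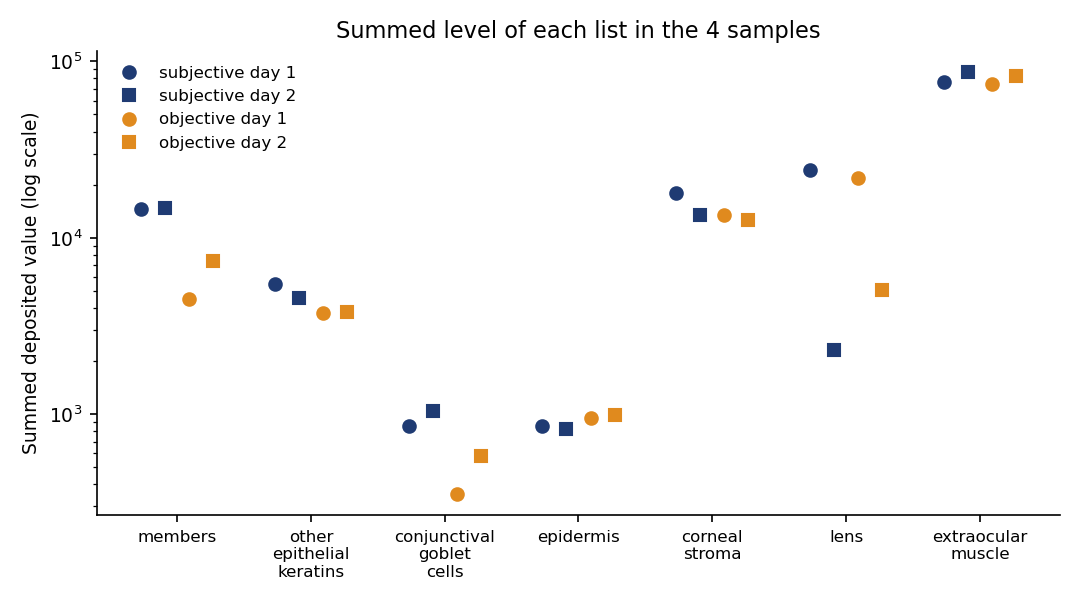
Summed deposited value (log axis) of the 10 surface genes and of 6 further lists in each of the 4 samples; Krt7 counts in both the keratin and the goblet cell list. The surface genes are lower in both objective day samples, the lens list is low in both samples numbered 2, and the epidermis list lies between 820.5 and 988 in all 4.

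The profile of the 9 genes across the samples was also used to find the genes most like them. The mean profile, centred on the log2 scale, was 0.64 and 0.63 in subjective day, against -0.92 and -0.34 in objective day. Among 14532 other tested genes with a mean value of at least 50, the 12 with the smallest root mean square distance to it included Gsto1, Gda, Muc1, Trim29, Ehf, Asprv1, Calml3, Krt6b, Gm14446, Mal and 1600029D21Rik. Their distances ran from 0.021 to 0.13 log2 units, compared with a median of 0.68 over the genes searched and with 0.023 (Krt14) to 0.25 (Krt13) for the 9 genes themselves. Gsto1, a glutathione transferase of the omega class, was closest, at 4372 and 4215 in subjective day, against 1481 and 2241 in objective day. Muc1, Ehf and Krt6b were also on the epithelial lists. Calml3, a calmodulin-like gene of stratified epithelia, had 1268 and 1506, then 432 and 705. Asprv1, a protease gene of stratified epithelia, had 820 and 674, then 248 and 367. This likeness rests on 4 samples and includes the comparison that had chosen the list.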

How the data were processed

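RNA-seq of poly-A RNA from 4 mouse eye samples (single 50-base reads, all on one lane) was analysed. Per the labels, the authors processed reads with CASAVA 1.8, TopHat2 2.0.9, Bowtie2 2.1.0, HTSeq and edgeR. The deposited values are a signal, gene counts that the authors adjusted to a common library size; they are fractional, so no count model was used. The deposited table also holds the authors' own log2 fold change, mean log2 CPM, p-value and adjusted p-value, which were not used. Values were read as log2(value + 1) and compared with limma 3.58.1 in R 4.3.3 with a variance prior following the mean, for genes that reached 10 in 2 or more samples, and Benjamini-Hochberg adjustment at 0.05. The test was checked on simulated counts with the same dispersion for all genes, and with no GC trend or link between samples. That check therefore does not show how the test behaves where such trends are present. Positions, lengths and GC content came from GENCODE M21 (GRCm38), using the longest transcript of each gene; GC content was known for 98.6% of the genes tested. GC trends were removed by local regression (span 0.3). Low values were whole multiples of 1 read in too few samples to recover reads or depth, and with 2 samples per condition precision is limited by their number. The genes and lists were chosen with earlier results of these data known. Named were all 10 genes, up to 4 called genes of each list by smallest adjusted p (the 2 most abundant where fewer than 2 passed), and the 12 genes nearest in profile. A few genes that this rule names are not reported here. Alternatives covered the filter, scaling, pseudocount, variance prior, replicate block, GC content and each sample left out. Figures were drawn with matplotlib 3.10.9.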

Additional observations from a re-analysis of the deposited data

How the results depend on the processing

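The log2 fold changes of the 9 genes tested were negative under all 14 alternatives. Both objective day samples lay below both subjective day samples for each gene, so leaving out 1 sample could not reverse the sign. The genes were also chosen on this comparison, so nothing is read from these signs. A fit without 1 sample takes its spread from the other group alone. With all 4 samples kept, the calls that changed were those of all 9 genes under a common variance prior, and of Sfn with the GC trend removed. With the common prior limma called 0 genes in all (3586 had an unadjusted p under 0.05), 0 of the 9 and 0 of the other lists. The median of the 9 ran from -1.54 to -0.98 with each sample left out, their called count from 8 to 9, the count over all genes from 664 to 2557 and that of the other lists from 16 to 32. With the GC trend removed 211 genes were called in all (111 lower and 100 higher) and 10 in the other lists. Samples with the same number share only that number in the labels; their deviations correlated at 0.319 across genes. With the replicate number as a block, 3613 genes were called in all, all 9 surface genes and 44 genes of the other lists. When the GC trend was removed as well, 1626 were called in all (712 lower and 914 higher) and 48 of the other lists. No other call of the 9 changed in fits with all 4 samples. By list, the block alone gave 12 junction, 10 barrier, 6 keratin and 4 regulator genes lower, 2 adhesion genes lower and 1 higher, 2 goblet cell genes lower, 2 lens genes higher, 1 corneal endothelium gene each way, 1 iris gene higher, 1 muscle gene lower, 2 corneal stroma genes lower and no epidermis gene. Of 12 retina and RPE markers, 4 were called higher and 1 lower. Changes of scaling, filter and pseudocount kept the counts within 1.5 times. Depth could not be recovered from the values, so low genes such as Krt12 have no interval.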
